A study of Homo sapiens with 12 samples.

Results

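The cytokine cluster on human chromosome 5q31 holds genes for type 2 cytokines and haematopoietic growth factors. Its members here were IL3, IL4, IL5, IL9, IL13 and CSF2 with the interspersed or adjoining genes RAD50 and KIF3A. A gene was taken from the rows of the deposited value table whose only gene symbol is one of these 8, and the brightest row would have stood for a gene with several. Of the 8 members, 6 were found, each with 1 row, among 18404 genes named in a table of 32321 probe sets. IL9 and CSF2 have no row under their own name and are not analysed here.

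In T-helper 2 cells the transcription factor GATA-3 opens this cluster and binds regulatory elements of IL5, IL13 and IL4, which are then transcribed together. Part of that control lies inside the RAD50 gene, in a locus control region described best in the mouse. Hodgkin cells derive from B cells but can express GATA3 and type 2 cytokines, and IL-13 is known as a growth factor that Hodgkin cells make for themselves.

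Gene expression was measured on 12 one-colour whole-transcript arrays of 2 established Hodgkin lymphoma lines, U-HO1 and L-1236. The 4 groups were U-HO1 with an shRNA against GATA-3, U-HO1 with a control shRNA, L-1236 with the shRNA against GATA-3 and L-1236 with the control shRNA, with 3 arrays each. U-HO1 was grown in IMDM and L-1236 in RPMI 1640, so line and medium cannot be told apart. All 4 groups consisted of transduced cells that were GFP-positive at sorting, after 3 days of culture, and each sample was amplified RNA of 25000 such cells. Each line is a single line, and the source does not say whether its independent samples were separate transductions, so a p-value here measures spread among arrays, which may be technical. The arrays measured bulk RNA, in which fewer cells expressing a gene and less RNA per cell cannot be told apart. Levels are log2 values as deposited, and their log base was read from their range. Each probe set binds with its own strength, so a level is compared between arrays and never between genes.

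Promoters of measured members are shown because the relation to GATA3 is asked below; IL5 has no entry in the promoter table used and is named only. RefSeq promoters of the GRCh38.p14 assembly were read for the 250 bases before each start on chromosome 5 and searched on both strands for AGATAA or AGATAG and for TGATAA or TGATAG, spellings of the motif that GATA factors recognise. At least 1 of them stood in 22.3% of the 35116 promoters of the assembly. Among the members it stood in 4 of 8 promoters, belonging to 3 of the 7 genes with an entry. The match began 113 bases before the start of IL3, 114 before that of CSF2, and 51 and 84 before the 2 starts of IL13. The promoters of RAD50, IL4, KIF3A and IL9 held none of these letters in this window. Given below, with a match in capitals, are the promoters of IL13 (the downstream start, chr5:132657923-132658172, plus strand), IL4 (chr5:132673739-132673988, plus strand), IL3 (chr5:132060405-132060654, plus strand) and RAD50 (chr5:132556727-132556976, plus strand).
IL13: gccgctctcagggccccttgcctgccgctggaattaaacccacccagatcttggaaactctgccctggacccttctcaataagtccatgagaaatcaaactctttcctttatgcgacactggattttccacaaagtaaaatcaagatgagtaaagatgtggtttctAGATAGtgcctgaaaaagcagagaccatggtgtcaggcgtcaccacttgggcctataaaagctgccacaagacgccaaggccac
IL4: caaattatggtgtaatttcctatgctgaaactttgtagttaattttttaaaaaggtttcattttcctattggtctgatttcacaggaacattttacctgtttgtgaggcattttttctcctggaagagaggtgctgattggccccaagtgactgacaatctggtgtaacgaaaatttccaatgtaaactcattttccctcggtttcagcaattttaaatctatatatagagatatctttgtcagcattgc
IL3: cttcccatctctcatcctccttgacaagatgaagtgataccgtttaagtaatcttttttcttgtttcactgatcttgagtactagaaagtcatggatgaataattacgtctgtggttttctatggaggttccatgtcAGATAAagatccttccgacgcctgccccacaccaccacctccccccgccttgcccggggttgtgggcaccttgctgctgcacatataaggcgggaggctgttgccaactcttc
RAD50: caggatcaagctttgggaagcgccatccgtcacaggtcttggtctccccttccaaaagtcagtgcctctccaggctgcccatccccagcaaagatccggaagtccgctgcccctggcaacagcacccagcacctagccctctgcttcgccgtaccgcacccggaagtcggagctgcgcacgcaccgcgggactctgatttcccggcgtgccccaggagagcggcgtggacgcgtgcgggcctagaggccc
A match is a description of these letters and not a binding site.

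GATA3, the target of the shRNA, was read on every array first. It stood at 11.07, 10.12 and 10.22 on U-HO1 arrays labelled knockdown (replicates 1, 2 and 3), against 11.24, 10.90 and 10.24 on U-HO1 arrays labelled control. In L-1236 it stood at 10.80, 10.00 and 10.24 on arrays labelled knockdown, against 10.29, 10.69 and 9.95 on arrays labelled control. The ranges of the labels overlapped in both lines, and knockdown replicate 1 of L-1236 was that line's highest array. The mean difference was -0.32 in U-HO1 (exact two-sided permutation p = 0.5) and 0.035 in L-1236 (exact permutation p = 0.9), where the smallest p possible is 0.1. The words knockdown and control therefore stand below for labels, and not for a measured loss of GATA3.

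The lines carried different amounts of transcript for part of the cluster. IL5 was 3.84-fold higher in U-HO1 than in L-1236 on arrays labelled knockdown and 5.09-fold higher on arrays labelled control. IL13 was 1.79-fold and 1.74-fold higher on the same 2 sets of arrays. RAD50 was 1.34-fold higher on control arrays, while IL4 and IL3 differed between the lines by less than the spread between arrays. Between the labels, no member passed the test in either line.

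**Figure D1:**
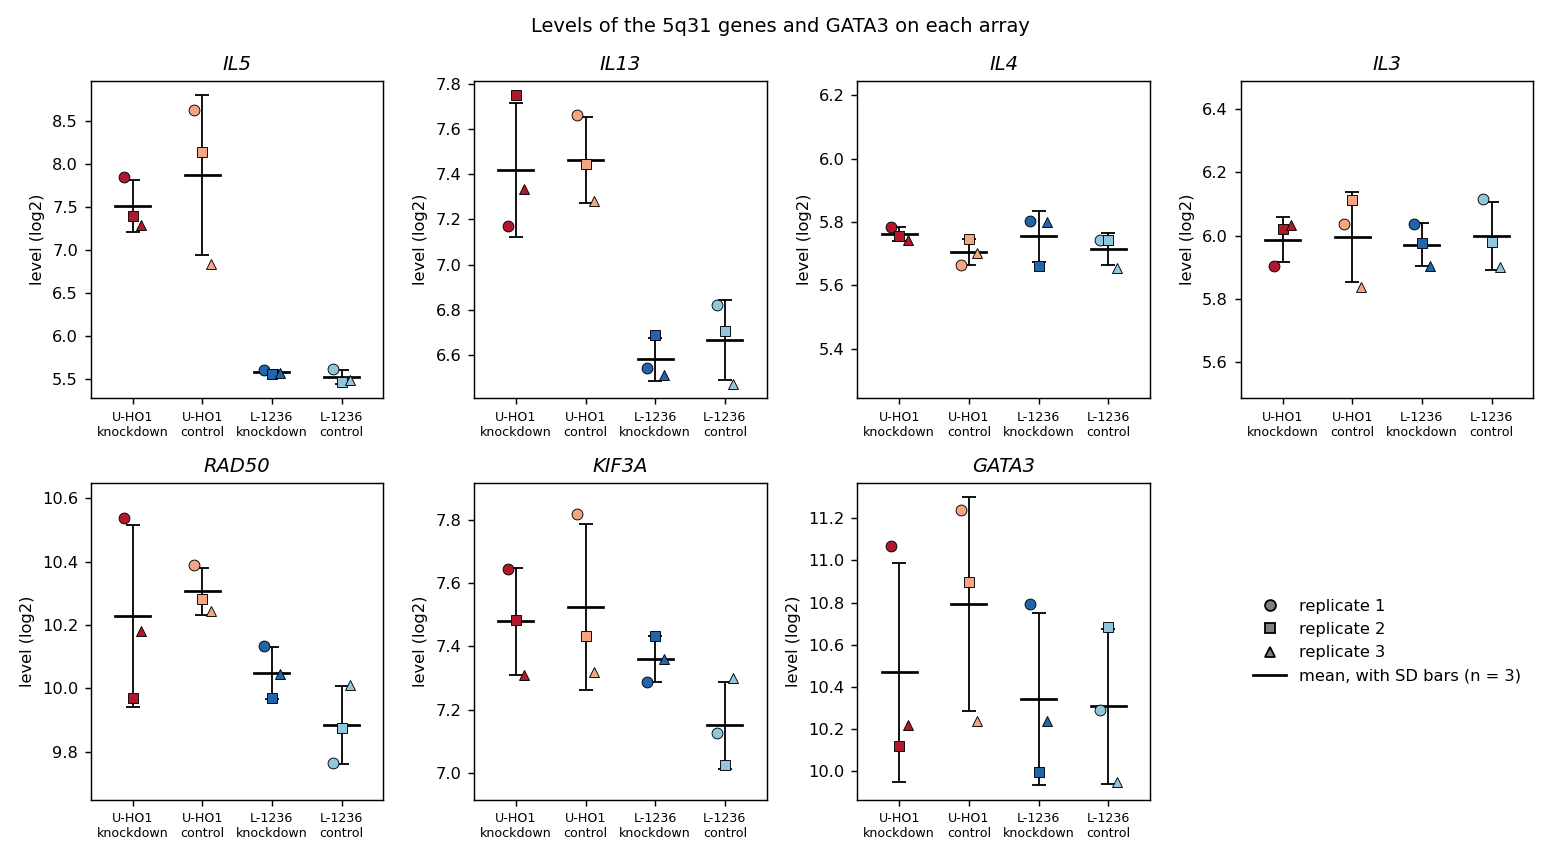
Level of the 6 measured members and of GATA3 on each array (vertical axis, log2; scales differ between panels), with the mean and SD of each group of 3 arrays. IL5 and IL13 lie higher on all U-HO1 arrays than on any L-1236 array, IL4 reads 5.66 to 5.80 and IL3 5.84 to 6.11 over the 12 arrays, and GATA3 overlaps between labels and between lines.

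IL5 encodes the cytokine that drives the growth and differentiation of eosinophils, cells often abundant in Hodgkin tumours. It read 7.86, 7.40 and 7.29 on U-HO1 arrays labelled knockdown (replicates 1, 2 and 3) and 8.64, 8.14 and 6.83 on U-HO1 arrays labelled control. In L-1236 it read 5.60, 5.56 and 5.56 on arrays labelled knockdown and 5.61, 5.47 and 5.49 on arrays labelled control. All 6 arrays of U-HO1 lay above all 6 arrays of L-1236. The lowest U-HO1 array stood 1.69 above the highest L-1236 array among knockdown arrays, and 1.22 above it among control arrays. How many of all genes separate the lines was not counted, so a gap, here or below, does not set a member apart. The log2 difference between U-HO1 and L-1236 was 1.94 on knockdown arrays (95% interval 1.21 to 2.67, limma adjusted p = 0.000931) and 2.35 on control arrays (1.62 to 3.08, adjusted p = 0.00023). The group means were 7.52 ± 0.30 on U-HO1 knockdown and 7.87 ± 0.93 on U-HO1 control arrays, and 5.57 ± 0.025 on L-1236 knockdown and 5.52 ± 0.080 on L-1236 control arrays (SD, n = 3). In order of level both U-HO1 groups came before both L-1236 groups, and the neighbours within a line did not differ beyond their spread. The spread itself was unequal, with IL5 covering 1.80 log2 units over the 6 U-HO1 arrays and 0.15 over the 6 L-1236 arrays. The intervals above use a spread shared by both lines. The L-1236 values are not shown to lie above background, and the fold between the lines is that of the measured values.

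IL13 encodes interleukin-13, which signals through a receptor that joins IL4R and IL13RA1. It read 7.17, 7.75 and 7.34 on U-HO1 arrays labelled knockdown (replicates 1, 2 and 3) and 7.66, 7.45 and 7.28 on U-HO1 arrays labelled control. In L-1236 it read 6.54, 6.69 and 6.51 on arrays labelled knockdown and 6.82, 6.71 and 6.47 on arrays labelled control. As with IL5, no L-1236 array reached the lowest U-HO1 array, and the gap was 0.48 on knockdown arrays and 0.46 on control arrays. The log2 difference between U-HO1 and L-1236 was 0.84 on knockdown arrays (95% interval 0.52 to 1.16, limma adjusted p = 0.00108) and 0.80 on control arrays (0.48 to 1.12, adjusted p = 0.00154). The group means were 7.42 ± 0.30 and 7.46 ± 0.19 in U-HO1 and 6.58 ± 0.095 and 6.67 ± 0.18 in L-1236, knockdown before control (SD, n = 3), and labels of a line differed by less than these spreads. The L-1236 values of IL13, like those of IL5, are not shown to lie above background, and its folds are ratios of the measured values.

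IL4, the gene next to IL13, encodes the cytokine that starts T-helper 2 differentiation. It read 5.79, 5.76 and 5.74 on U-HO1 arrays labelled knockdown (replicates 1, 2 and 3) and 5.66, 5.75 and 5.70 on U-HO1 arrays labelled control. In L-1236 it read 5.80, 5.66 and 5.80 on arrays labelled knockdown and 5.74, 5.74 and 5.66 on arrays labelled control. The lines overlapped on both sets of arrays. The U-HO1 minus L-1236 difference was 0.0069 on knockdown arrays (95% interval -0.13 to 0.15) and -0.0087 on control arrays (-0.15 to 0.13), and its limma adjusted p was 0.964 and 0.951. These intervals hold no difference of the size seen for IL13, though IL4 is not shown to lie above background in either line.

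IL3, at the far end of the cluster beside CSF2, encodes a growth factor of early blood cells that signals through the shared receptor subunit CSF2RB. It read 5.91, 6.02 and 6.03 on U-HO1 arrays labelled knockdown (replicates 1, 2 and 3) and 6.04, 6.11 and 5.84 on U-HO1 arrays labelled control. In L-1236 it read 6.04, 5.98 and 5.90 on arrays labelled knockdown and 6.11, 5.98 and 5.90 on arrays labelled control. The lines overlapped on both sets, with a difference of 0.015 on knockdown arrays (95% interval -0.18 to 0.21) and -0.0029 on control arrays (-0.19 to 0.19). By limma its adjusted p was 0.940 and 0.988. With centring of the array medians the sign of these small differences of IL3 and IL4 turned.

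RAD50, which lies between IL5 and IL13, encodes a subunit of the complex that holds and processes broken DNA ends. It read 10.54, 9.97 and 10.18 on U-HO1 arrays labelled knockdown (replicates 1, 2 and 3) and 10.39, 10.28 and 10.24 on U-HO1 arrays labelled control. In L-1236 it read 10.13, 9.97 and 10.05 on arrays labelled knockdown and 9.77, 9.87 and 10.01 on arrays labelled control. The lines were apart on control arrays, by 0.23, and overlapped on knockdown arrays. The U-HO1 minus L-1236 difference was 0.18 on knockdown arrays (95% interval -0.091 to 0.45, limma adjusted p = 0.369) and 0.42 on control arrays (0.15 to 0.69, adjusted p = 0.0244). The gap between these 2 values was -0.24 (SE 0.18, limma adjusted p = 1.00), so they are not shown to differ. The call on control arrays was lost without L-1236 control replicate 1 (adjusted p = 0.0920), L-1236 control replicate 2 (0.0559), U-HO1 control replicate 1 (0.0848) or U-HO1 control replicate 2 (0.0524), and with quantile normalization (0.105).

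KIF3A, on the other side of IL4, encodes a kinesin motor subunit that carries cargo in cilia. It read 7.64, 7.48 and 7.31 on U-HO1 arrays labelled knockdown (replicates 1, 2 and 3) and 7.82, 7.43 and 7.32 on U-HO1 arrays labelled control. In L-1236 it read 7.29, 7.43 and 7.36 on arrays labelled knockdown and 7.13, 7.03 and 7.30 on arrays labelled control. As with RAD50, the lines overlapped on knockdown arrays, and on control arrays they were apart by 0.022. The U-HO1 minus L-1236 difference was 0.12 on knockdown arrays (limma adjusted p = 0.609) and 0.37 on control arrays (95% interval 0.092 to 0.65, adjusted p = 0.0521), just outside the threshold of 0.05. Without U-HO1 control replicate 1 the difference was 0.23 (adjusted p = 0.208). It passed without L-1236 control replicate 3 (0.0437) or U-HO1 control replicate 3 (0.0246), and with quantile normalization (0.0306) and 4 other alternatives.

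**Figure D2:**
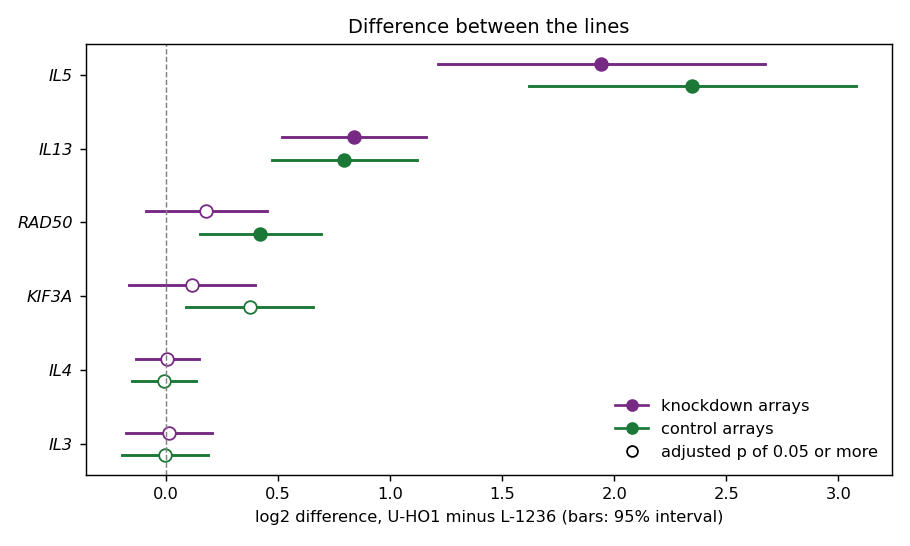
Log2 difference, U-HO1 minus L-1236, of the 6 measured members on knockdown arrays and on control arrays, with 95% intervals from the limma fit of all 12 arrays; open circles have an adjusted p of 0.05 or more. IL5 stands at 1.94 and 2.35 and IL13 at 0.84 and 0.80, while both values of IL4 and IL3 sit at 0.

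Counted together, 2 of the 6 members were higher in U-HO1 on knockdown arrays and 3 of 6 on control arrays, at an adjusted p under 0.05. Of all 32321 probe sets, 12.2% were higher in U-HO1 on knockdown arrays and 12.5% lower. On control arrays 13.3% were higher and 12.5% lower. No member was lower in U-HO1. With 6 members, these counts are a description, and the lines differ in many genes outside the cluster.

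Genes around the members were compared between the lines in the same way. Of 17 listed neighbours, 2 were higher and 2 lower in U-HO1 on knockdown arrays, and 3 were higher and 1 lower on control arrays (limma adjusted p under 0.05). Over all probe sets 12.2% were higher and 12.5% lower on knockdown arrays, and 13.3% and 12.5% on control arrays. The neighbours as a set thus do not stand out from the whole table, which includes 11775 probe sets without a gene symbol. Fitted alone, 6564 of the 16160 probe sets above the median level passed on knockdown arrays. Shares of the whole table are therefore not matched to listed genes, here and in the other counts. The median difference of the 17 was -0.013 on knockdown arrays and 0.0012 on control arrays, against 0.031 and 0.00063 over all probe sets. IRF1, the gene on the other side of IL5, encodes an interferon-induced transcription factor and was higher in U-HO1. Its difference was 1.06 on knockdown arrays (means 9.89 in U-HO1 and 8.83 in L-1236, adjusted p = 0.00628) and 1.18 on control arrays (means 9.86 and 8.68, adjusted p = 0.00318). SLC22A5, the carnitine transporter gene beside IRF1, was lower in U-HO1, by -0.71 on knockdown arrays and -0.76 on control arrays. ACSL6, an acyl-CoA synthetase gene beside IL3, was higher by 0.48 and 0.44 on the same sets. CCNI2 passed on control arrays alone (0.26, adjusted p = 0.0448) and ZCCHC10 on knockdown arrays alone (-0.31, adjusted p = 0.0176), and 0 of all probe sets passed for the difference between the 2 sets of arrays. IRF1 and SLC22A5, next to each other in the gene table, stood at opposite signs.

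**Figure D3:**
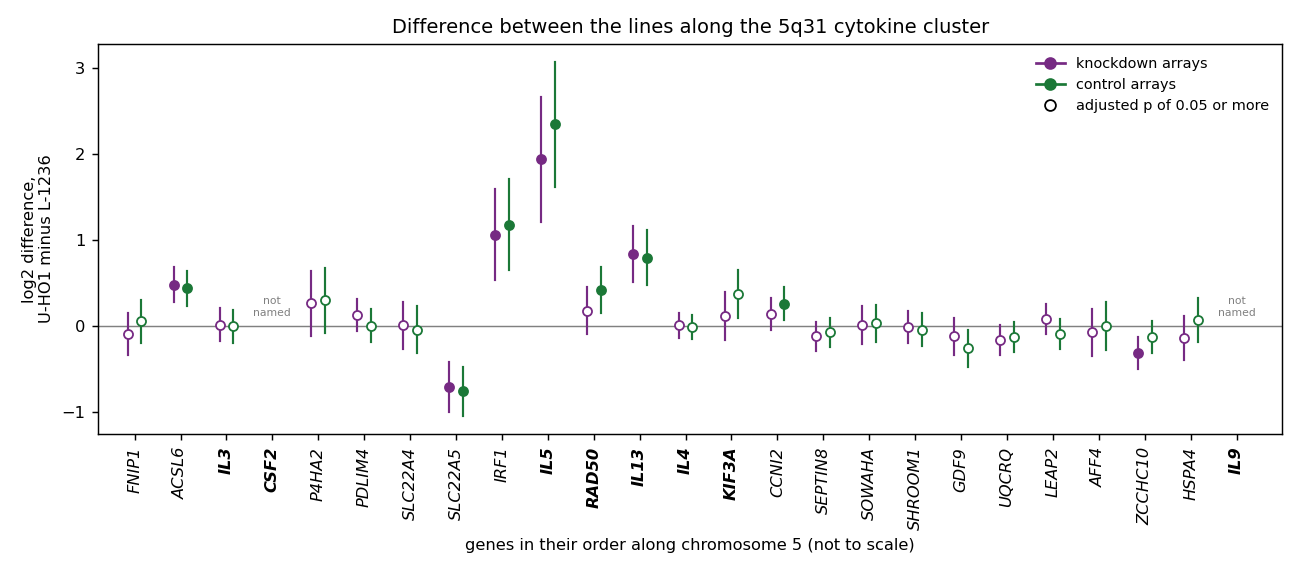
Log2 difference, U-HO1 minus L-1236, with 95% intervals for the members (bold) and listed neighbours in their order along chromosome 5, evenly spaced and not to scale, on knockdown and on control arrays; open circles have an adjusted p of 0.05 or more. IRF1, IL5 and IL13 stand above 0 on both sets, SLC22A5 stands below 0, and IL9 lies beyond a further 36 protein-coding genes after KIF3A.

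Within each line, the comparison of labels asked which transcripts change when GATA-3 is targeted. In U-HO1, IL5 differed by -0.35 between arrays labelled knockdown and control (95% interval -1.08 to 0.37), with a mean of 7.52 ± 0.30 against 7.87 ± 0.93 (SD, n = 3). Without U-HO1 control replicate 1 the difference was 0.027, so 1 array sets its direction. In L-1236 it differed by 0.051 (95% interval -0.68 to 0.78), with a mean of 5.57 ± 0.025 against 5.52 ± 0.080. The other 5 members differed by -0.077 to 0.057 in U-HO1, where RAD50 was at the lower end and IL4 at the upper. In L-1236 they differed by -0.086 for IL13, -0.027 for IL3, 0.041 for IL4, 0.17 for RAD50 and 0.21 for KIF3A. Knockdown and control arrays overlapped for every measured member in both lines.

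By limma, 0 of the 6 members passed an adjusted p of 0.05 in U-HO1 or in L-1236, and the adjusted p was 1.00 for each member in U-HO1 and 0.92 to 0.99 in L-1236. Of all 32321 probe sets 0% passed in either line. At an unadjusted p under 0.05 there were 0 of 6 members in each line, against 1.05% of all probe sets in U-HO1 and 4.77% in L-1236. The difference between the lines' effects was -0.41 for IL5 (SE 0.47), and 0 of 6 members passed for it (0% of all probe sets, 0 members and 2.46% of all probe sets at an unadjusted p under 0.05). The effect averaged over the lines was -0.15 for IL5 (SE 0.24), again with 0 of 6 passing (0% of all, and 0 members and 2.27% at an unadjusted p under 0.05). The interval of IL5 in U-HO1 still holds a fall by 1.08, so a change of that size cannot be told from none with 3 arrays a label.

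Because GATA3 differed more between arrays than between labels, each member was also set against the GATA3 level of its own array. In U-HO1, GATA3 fell into 2 sets of 3 arrays with a gap of 0.66 in a range of 1.12. The upper set, with GATA3 at 10.90 to 11.24, held knockdown replicate 1 and control replicates 1 and 2, and the lower set, with GATA3 at 10.12 to 10.24, held knockdown replicates 2 and 3 and control replicate 3. IL5 read 7.86 to 8.64 in the upper set and 6.83 to 7.40 in the lower. RAD50 read 10.28 to 10.54 in the upper set and 9.97 to 10.24 in the lower. KIF3A read 7.43 to 7.82 in the upper set and 7.31 to 7.48 in the lower. How many of all genes separate these sets was not counted, so the ranges do not set a member apart. These sets are only a description of GATA3. No correlation is tested across the 6 U-HO1 arrays, since they form separate clusters, and the U-HO1 slopes and their p-values given next come from arrays that fall into these 2 sets. Whether a member follows GATA3 within a set of 3 arrays cannot be tested.

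**Figure D4:**
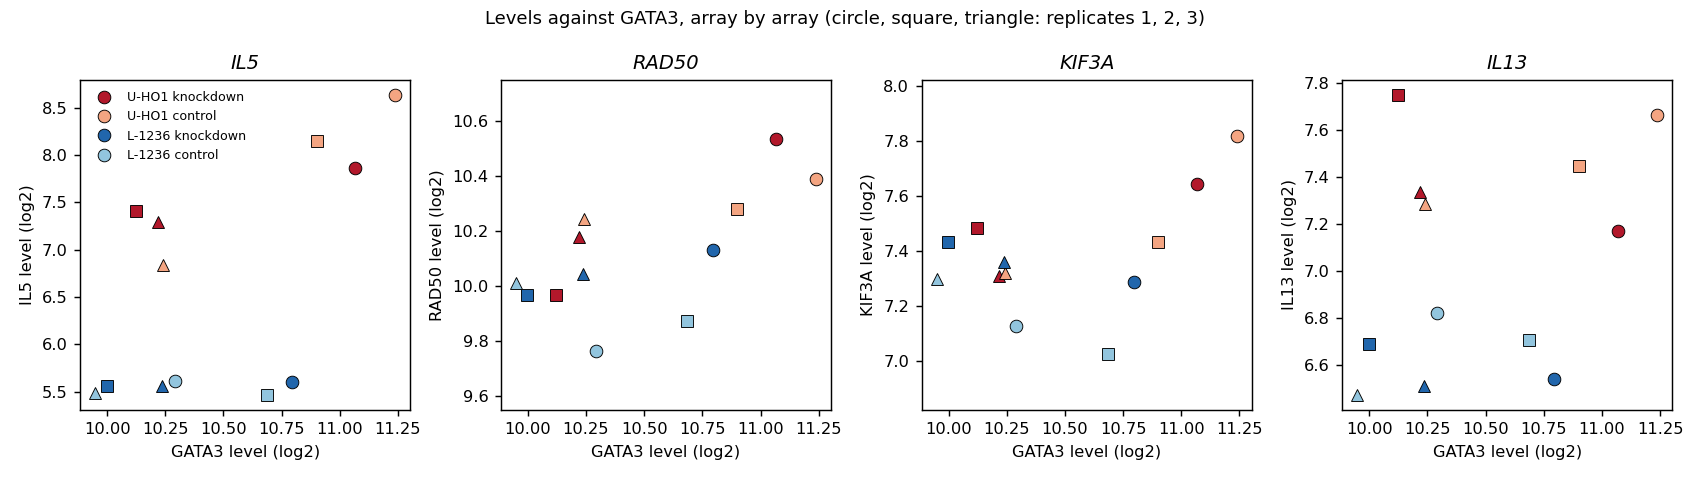
Level of IL5, RAD50, KIF3A and IL13 (vertical axes, log2) against the level of GATA3 on the same array (horizontal axes, log2), with 1 point per array in the colours of the 4 groups. In U-HO1 the 3 arrays with GATA3 at 10.90 or more have the highest IL5 levels, and in L-1236 IL5 stays between 5.47 and 5.61 across the range of GATA3.

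A linear model with a slope on GATA3 in each line gave 1.17 log2 units of IL5 per log2 unit of GATA3 in U-HO1 (SE 0.19, 95% interval 0.75 to 1.58). Its unadjusted limma p was 4.83e-05 and its adjusted p over all probe sets was 0.0743, which misses the threshold. The SEs, intervals and p-values of the slopes rest on a spread shared by both lines, and IL5 covered only 0.15 log2 units in L-1236. Over the U-HO1 arrays alone the unadjusted limma p of the IL5 slope was 0.000727. Among the alternatives without a replicate block, the slope passed with quantile normalization (adjusted p = 0.0281), with 1 probe set per gene (0.0274) and with array quality weights (0.00901). It did not pass with centring of array medians (0.121), with a trended and robust prior (0.0541) or over the U-HO1 arrays alone (0.205). Leaving out each array in turn kept the slope between 0.95 and 1.37, with an adjusted p of 0.0751 to 0.498.

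The slopes of RAD50 (0.32, SE 0.12) and KIF3A (0.33, SE 0.12) in U-HO1 had unadjusted p-values of 0.0164 and 0.0166 and limma adjusted p-values of 0.869 and 0.871. IL13 (-0.027), IL4 (-0.016) and IL3 (0.042) had slopes near 0. In all, 0 of 6 members passed the adjusted threshold in U-HO1, where 0.0464% of all probe sets did. At an unadjusted p under 0.05 there were 3 of 6 members, against 4.22% of all probe sets.

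In L-1236 the slope of IL5 on GATA3 was 0.020 (SE 0.27), and those of the other members ran from -0.24 for KIF3A to 0.13 for IL4. By limma 0 of 6 passed, against 0.0124% of all probe sets, and at an unadjusted p under 0.05 there were 0 of 6, against 4.62% of all probe sets. The IL5 slopes of U-HO1 and L-1236 differed by 1.15 (SE 0.33, unadjusted p = 0.00441), which after adjustment over all probe sets gave a limma adjusted p of 1.00. For this difference of slopes 0 of 6 members and 0% of all probe sets passed, and KIF3A was the other member with an unadjusted p under 0.05 (0.57, SE 0.20), a level that 2.14% of all probe sets reached. GATA3 in L-1236 was also uneven, with 4 arrays at 9.95 to 10.29 and 2 at 10.69 to 10.80. The gap was 0.39 in a range of 0.85, so the slopes and correlations in L-1236 also come from arrays in 2 sets. Across the 6 L-1236 arrays, Pearson's r with GATA3 was highest for IL4, at 0.74 (exact permutation p = 0.1, adjusted over 6 relations 0.6). Its Spearman's rho was 0.83 (exact permutation p = 0.0583, adjusted 0.308). The r of IL3 was 0.42, of IL5 0.12, of IL13 0.12, of RAD50 0.12 and of KIF3A -0.56, and 0 of 6 relations passed. Without the 2 arrays farthest from the median of GATA3, r was 0.89 for IL4, 0.84 for IL5, 0.55 for IL3, 0.47 for IL13, -0.52 for RAD50 and -0.58 for KIF3A over 4 arrays. Over the 6 L-1236 arrays IL4 and IL5 each covered only 0.15 log2 units. Neither they nor IL3 and IL13 are shown to lie above background there.

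The genes whose level most resembled each called member over the 12 arrays were found by Pearson's r, a description over arrays that fall into 2 lines. For IL5 they were TPMT, ST6GAL1 and CXADR (r = 0.98 each), among 18403 other genes. For IL13 they were ADAM8 (0.99), NANOS1 (0.98) and SLC4A11 (0.98), and for RAD50 CREB1, PKN2 and NUDT2 (0.95 each). IL5 and IL13 had r = 0.90 with each other, which put IL13 at rank 535 for IL5. Within U-HO1, where IL5 varied most of the members, the genes most like it were OR10S1, ZNF239, UBXN8, OR9I1 and VWC2L (r = 0.99 each over 6 arrays). GATA3 stood at rank 242 there with r = 0.89, and 1.32% of genes had an r at least as high. The U-HO1 arrays fall into 2 sets by GATA3, so this rank and share are a description and not a test. The r of IL5 with KIF3A was 0.83, with RAD50 0.49 and with IL13 0.35 in U-HO1. Within L-1236 the genes most like IL5 were ADAM30, FAT1, PGS1, OR2G6 and ALPP, and GATA3 had r = 0.12, which 46.2% of genes reached.

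Receptors of the cluster's cytokines differed between the lines in both directions. Of 9 listed, 1 was higher and 5 lower in U-HO1 on knockdown arrays, and 2 higher and 4 lower on control arrays, with a median difference of -0.44 and -0.19. Over all probe sets 12.2% were higher and 12.5% lower on knockdown arrays and 13.3% and 12.5% on control arrays, with medians of 0.031 and 0.00063. CSF2RB, the signalling subunit shared by the receptors for IL-3, IL-5 and GM-CSF, was lower in U-HO1 by -2.55 on knockdown arrays (means 6.98 in U-HO1 and 9.54 in L-1236) and by -2.27 on control arrays (7.04 and 9.32). IL5RA, which binds IL-5, was lower by -0.68 and -0.54, with adjusted p-values of 0.000635 and 0.0029. Both subunits of the IL-13 receptor were lower in U-HO1: IL4R by -1.30 and -1.17, and IL13RA1 by -1.40 and -1.27. IL9R, the receptor for IL-9, was higher by 0.82 and 0.79. In U-HO1, IL5 and IL13 were higher while IL5RA, CSF2RB, IL4R and IL13RA1 were lower. Each passed a limma adjusted p of 0.05 on both sets of arrays. These receptor genes are part of the 9 listed, IL9R went the other way, and a link between cytokine and receptor levels was not tested.

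Regulators of the cluster were compared in the same way, against the same shares and medians of all probe sets. Of 21, 4 were higher and 8 lower in U-HO1 on knockdown arrays and 5 were higher and 5 lower on control arrays, with medians of -0.16 and -0.16. The 4 with the smallest p were all lower, while STAT5A, which carries signals of several cytokine receptors, was higher by 0.54 and 0.64. STAT6, which carries the IL-4 and IL-13 signal to the nucleus, was lower in U-HO1 by -1.06 on knockdown arrays and -1.03 on control arrays. RUNX3, known to silence IL4 in T-helper 1 cells, was lower by -0.92 and -0.73, NFATC1 by -0.61 and -0.57, and BATF by -0.53 and -0.56. GATA3 itself did not pass the test, with 0.13 on knockdown arrays (95% interval -0.55 to 0.80, limma adjusted p = 0.843) and 0.48 on control arrays (-0.19 to 1.16, adjusted p = 0.323).

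Of 17 other type 2 cytokines and products measured from a list of 18, 3 were higher and 4 lower in U-HO1 on each set of arrays, with medians of 0.050 on knockdown arrays and -0.064 on control arrays. The share over all probe sets was 12.2% higher and 12.5% lower on knockdown arrays, and 13.3% and 12.5% on control arrays, with medians of 0.031 and 0.00063. CCL1, a chemokine for CCR8-bearing T cells, was higher by 4.22 and 4.16, and CCR4, the receptor for CCL17 and CCL22, by 2.52 on both sets. IL1RL1, the IL-33 receptor, was lower by -1.45 and -1.49. CCL17 was higher by 0.79 and 0.76, and CCL22, which shares the receptor CCR4, was lower by -1.52 and -2.05. In the comparisons of labels and in the slopes on GATA3, 0 members of these 4 lists passed.

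Markers of other cells were read beside the high IL5 of U-HO1. For the counts below, 12.2% of all probe sets were higher and 12.5% lower in U-HO1 on knockdown arrays, and 13.3% and 12.5% on control arrays. Of 6 listed T-cell genes 5 were measured, and their mean level per array was 6.01 to 6.23 in U-HO1 and at most 6.15 in L-1236. None of the 5 passed between the lines (limma adjusted p of 0.349 to 0.995 on knockdown arrays). Of 7 mast cell and eosinophil genes 5 were measured, at 5.90 to 6.04 in U-HO1 and 5.96 to 6.09 in L-1236, with 0 called between the lines on either set of arrays. The 3 myeloid genes stood at 6.34 to 6.57 in U-HO1 and 6.43 to 6.55 in L-1236. The 9 listed Hodgkin markers together stood at 9.51 to 9.76 in U-HO1 and 9.34 to 9.50 in L-1236, with 4 higher and 2 lower in U-HO1 on each set of arrays. TNFRSF8, which encodes the Hodgkin marker CD30, was higher by 0.56 on knockdown and 0.68 on control arrays, and CD40 was lower by -1.95 and -1.96. Of 6 B-cell genes 5 were measured, and 0 were higher and 2 lower in U-HO1 on each set. PAX5 was lower by -2.02 and -1.97 and CD22 by -2.70 and -2.54, while CD79A, CD79B and MS4A1 did not pass, with differences of -0.13 to 0.093. Probe sets of 27 measured genes of unrelated tissues, out of 35 listed, had a median level of 6.45. Single values ran from 5.29 to 9.89, and MBP had the highest mean, 8.60. Of the 27, 0 were higher and 1 lower in U-HO1 on each set of arrays. The list describes what these arrays read for genes not expected in either line, and gives no threshold for background.

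Across the series, array medians lay between 6.96 and 7.09, arrays of 1 line correlated at 0.986 to 0.995 over probe sets and arrays of different lines at 0.939 to 0.951. No 2 arrays held identical values, and the number of arrays limits the precision of every comparison.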

How the data were processed

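The values are log2 levels per probe set from the table the authors deposited, with 12 columns, 1 per array. The authors worked in R 2.8.1, per the submitters' processing notes. The sources used here do not give the background correction or normalization, and the log base was read from the range of the values. Of 32321 probe sets 19158 had 1 gene symbol in the platform's annotation, 1388 had several and 11775 had none, which gave 18404 genes. Of the named rows, 19128 matched a RefSeq gene table by Entrez identifier, which was used for names and gene order only.

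Group means of the 12 arrays were fitted together in limma 3.58.1 (R 4.3.3) with moderated variances on 8 residual degrees of freedom. Benjamini-Hochberg adjustment ran over the whole table, and a call is an adjusted p under 0.05. The submitters' own criteria, an FDR up to 25% and at least a 1.5-fold change, were met by 0 probe sets between labels. Slopes came from another limma model with the line and, in each line, the GATA3 level of the array. Correlations were tested by exact permutation in L-1236 (SciPy 1.17.1). Those planned in U-HO1 were left out because its GATA3 levels form 2 clusters. L-1236 also has a gap in GATA3, a smaller one, and its correlations were kept. The adjustment, planned over the members in both lines, ran over the 6 relations in L-1236. The fits were also run on simulated data with independent noise, the same spread in both lines and no difference between the lines. That setting cannot test whether a spread shared by both lines suits the measured data.

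The members, gene lists and comparisons were chosen with earlier results of these data known. Genes named are the members, GATA3, up to 4 genes with the smallest p of a described list in a comparison, the 3 genes most like each called member, and the 5 most like IL5 within each line. IL5RA, STAT5A, CCL17 and CCL22 on one set of arrays, and the marker TNFRSF8 lie outside that rule and were chosen after their values were seen. Tried in turn were the replicate number as a block (for all arrays, or within each line), quantile normalization, centring on the median, a filter on dim probe sets, a single probe set for each gene, an eBayes prior with trend and robust options, weights per array (statmod 1.5.0), only the arrays concerned, and dropping single arrays. Same-numbered knockdown and control arrays correlated at -0.17 to 0.32 in U-HO1 and -0.40 to 0.17 in L-1236 in their deviations from the group means, so the numbers were not taken to pair the samples.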

Additional observations from a re-analysis of the deposited data

How the results depend on the processing

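Apart from leaving out single arrays, 378 values kept their direction and side of the threshold, 29 changed sign and the other 17 moved or crossed it. The higher IL5 and IL13 of U-HO1 passed under every alternative run on both sets of arrays, except that neither gene remains when dim probe sets are left out. Then 0 members were called on knockdown arrays, since RAD50 and KIF3A are the members left, while 6564 of 16160 probe sets passed. The number of members with a called slope on GATA3 in U-HO1 was 1 (IL5) with quantile normalization, 1 with 1 probe set per gene and 1 with array quality weights, and 32, 34 and 331 probe sets passed in all. With array weights, whose estimate did not converge, 1 member (KIF3A) was called in L-1236 among 12641 probe sets and 3 for the difference of slopes among 5696, and the cause was not tested.

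Sign changes were of values that did not pass. With quantile normalization IL3 differed between labels in L-1236 by 0.020, IL3 between the lines by -0.022 on knockdown and 0.0064 on control arrays, and IL4 by -0.031 on knockdown arrays. The IL5 slope in L-1236 was -0.0043, its r -0.025, the IL13 slope in U-HO1 0.00044 and the GATA3 difference in L-1236 -0.071. With centring IL3 differed between labels in L-1236 by 0.036, and between the lines IL3 by -0.019 and IL4 by -0.027 on knockdown arrays, and by 0.031 and 0.025 on control arrays. With array weights IL3 differed between the lines by 0.035 on control arrays, and slopes were -0.12 for IL5 and -0.13 for RAD50 in L-1236, and -0.039 for IL3 and 0.0096 for IL13 in U-HO1. Without the 2 arrays farthest from the median of GATA3, the r of RAD50 in L-1236 was -0.52.

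With the replicate number as a block, slopes in L-1236 were -0.11 for IL5 and -0.17 for IL13, that of IL3 in U-HO1 was -0.042, and r in L-1236 was -0.51 for IL3, -0.44 for IL5 and -0.47 for IL13. With the block within each line, slopes were -0.044 for IL3, -0.057 for IL5 and -0.15 for IL13 in L-1236 and -0.014 for KIF3A in U-HO1. The IL5 slope in U-HO1 was 1.07 with the block (limma adjusted p = 0.515) and 1.10 with the block within each line (unadjusted p = 0.0191, adjusted p = 1.00). The block within each line could not be fitted for the lines, and a mean of several GATA3 rows was not run, as GATA3 has 1.

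Leaving out each array in turn gave 2 to 4 called members between the lines on control arrays and 2 on knockdown arrays, and 0 in the other comparisons. Of all probe sets, 7049 to 8282 passed between the lines on control arrays and 6301 to 8181 on knockdown arrays. Between labels 0 passed, and for slopes 0 to 74 in L-1236, 0 to 16 in U-HO1 and 0 to 5 for their difference. Sign changes came in these ranges. Between labels in U-HO1, IL5 ran from -0.87 to 0.027 (positive without control replicate 1), IL13 from -0.21 to 0.078, IL3 from -0.089 to 0.049, RAD50 from -0.23 to 0.053 and KIF3A from -0.15 to 0.10. In L-1236, IL3 ran from -0.075 to 0.031 and GATA3 from -0.19 to 0.22. The IL5 effect averaged over the lines ran from -0.41 to 0.039. Between the lines, IL3 ran from -0.019 to 0.055 on knockdown and -0.061 to 0.077 on control arrays, and IL4 from -0.039 to 0.030 and -0.038 to 0.012. Slopes in U-HO1 ran from -0.25 to 0.17 for IL13, -0.020 to 0.098 for IL3 and -0.047 to 0.041 for IL4. In L-1236 they ran from -0.052 to 0.10 for IL5, -0.089 to 0.22 for IL13 and -0.20 to 0.15 for RAD50. The r in L-1236 ran from -0.25 to 0.71 for IL5, -0.23 to 0.44 for IL13 and -0.50 to 0.36 for RAD50. Signal over background is not known for any probe set, which limits what can be said of IL4 and IL3, and of IL5 and IL13 in L-1236.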
